A study of Mus musculus with 4 samples.

Results

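The genes described here are the mouse histone genes whose transcripts were measured in LSK cells, the bone marrow cells that lack lineage markers and carry SCA-1 and c-KIT. They were chosen by gene symbol (symbols that begin with Hist1h to Hist4h, H1f, H2af or H3f3) and by a mean of at least 10 normalized counts over the 4 libraries, a level that takes no account of genotype. Of 61 such symbols among the 18598 listed genes, 35 met the minimum and 26 did not. The 35 comprised 19 core replication-dependent genes (3 for H2A, 8 for H2B, 3 for H3 and 5 for H4), 9 variant genes (1 of them, H3f3aos, is annotated as an antisense RNA and encodes no histone) and 7 linker genes (H1f0, H1fx and 5 Hist1h1 genes). At the edge of the minimum, Hist1h2bk was included with a mean of 10.2 normalized counts and Hist1h2bh was excluded with 9.62.

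The RNA came from C57BL/6 mice of about 3 months, and each library held LSK cells pooled from 5 mice, sorted 10 days after cre induction. Control libraries (n = 2) came from littermates that the study calls Bptf f/f. Bptf-cKO libraries (n = 2) came from Bptf f/f mice with Mx1-cre, which deletes exon 2 of Bptf, the gene of the largest subunit of the NURF nucleosome remodeling complex. The study gives both genotypes as treated with pIpC, the interferon inducer that switches on Mx1-cre, and Mx1-cre acts in interferon-responsive cells generally, not in LSK cells alone. The comparison asks how the transcripts of the proteins that package DNA differed between these genotypes.

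Core histones H2A, H2B, H3 and H4 form the nucleosome around which DNA is wound, and linker histone H1 binds the DNA as it enters and leaves. Replication-dependent histone genes sit in clusters, lack introns and give mRNAs that mostly end in a short stem-loop bound by SLBP instead of a poly(A) tail, so that their supply follows DNA synthesis. Variant histones such as H2A.Z, H3.3 and the macroH2A proteins, and the linker histones H1.0 and H1.10 (encoded by H1f0 and H1fx), are made from polyadenylated mRNAs outside S phase as well, and H1.0 is known for accumulating in cells that stop dividing.

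The libraries held between 14091054 and 30134742 reads on listed genes, with both replicate 1 libraries deeper than both replicate 2 libraries, and the histone genes took 0.295% to 0.381% of them. Both replicate 2 libraries stood apart from both replicate 1 libraries, whatever the genotype. They carried Pou5f1 at 582 (control) and 738 (Bptf-cKO) normalized counts against 0 in both replicate 1 libraries, and 6 of 6 pluripotency markers were at 36.0 or more in replicate 2 and at 5.20 or less in replicate 1. Xist stood at 15675 and 11843 in replicate 2 against 0.775 and 3.25 in replicate 1. Genes of the Y chromosome went the other way. Ddx3y stood at 456 (control) and 769 (Bptf-cKO) in replicate 2 against 1837 and 1835 in replicate 1. Eif2s3y, Kdm5d and Uty were also lower in both replicate 2 libraries. The part of these differences between replicate numbers in the histone results was not tested. For the main genes the differences within each replicate number are given beside the results. Of 9 LSK markers, Kit overlapped between genotypes (17051 and 13634 in control, 14852 and 15436 in Bptf-cKO), and none was at 0 in any library. Bptf itself was lower in both Bptf-cKO libraries (3398 and 3320 against 5520 and 5850, log2 fold change -0.76, limma adjusted p = 0.0439, edgeR adjusted p = 0.0531).

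The stem-loop was searched in the longest protein-coding transcript of each gene (GENCODE vM21, GRCm38), as a stem of 6 bases that begins GG and ends in T, a loop of 4 bases that begins TT, and the complement of the stem. It was present in 17 of 19 core, 1 of 9 variant and 3 of 7 linker genes, against 0.310% of 21901 protein-coding genes. The 5 forms found are shown because the H4 genes carry another stem than the other core genes, with the stem in capitals and the loop in lower case, written as DNA.

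Form 1 (9 core and 3 linker genes, among them Hist3h2ba, Hist1h2bg, Hist3h2a and Hist1h1c): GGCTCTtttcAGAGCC
Form 2 (Hist1h2bb, Hist1h2bk and Hist1h3e): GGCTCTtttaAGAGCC
Form 3 (Hist1h4d, Hist1h4h and Hist4h4): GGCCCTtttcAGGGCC
Form 4 (Hist1h4i and Hist2h4): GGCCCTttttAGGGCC
Form 5 (H2afx): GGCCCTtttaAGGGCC

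All 5 H4 genes carried the GGCCCT stem, as did H2afx, and the 12 other core genes and 3 linker genes with a stem-loop carried GGCTCT, which H2A, H2B, H3 and H1 genes shared. H1fx, H1f0, Hist1h1a and Hist1h1b had no such stem-loop in the annotated transcript, nor had the core genes Hist2h2be and Hist1h2bc.

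Promoter windows of 300 bases (250 before to 50 after the start, RefSeq, GRCm38.p6) matched 29 of the 35 genes. They are shown for H1fx and for the 3 core genes with the largest fold changes among those with a mean of at least 50, with matches in capitals, on either strand, to the CCAAT box, to the TATA box spelled TATAAA, to the octamer known from H2B promoters (ATTTGCAT) and to the box known from H1 promoters (AAACACA).

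H1fx (chr6:87981433-87981732, minus strand): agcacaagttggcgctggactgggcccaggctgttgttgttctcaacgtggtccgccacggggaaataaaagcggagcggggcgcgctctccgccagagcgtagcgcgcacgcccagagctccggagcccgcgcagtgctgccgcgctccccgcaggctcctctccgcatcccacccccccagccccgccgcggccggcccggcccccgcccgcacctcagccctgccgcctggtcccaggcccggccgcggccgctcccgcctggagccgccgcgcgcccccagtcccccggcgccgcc
Hist3h2ba (chr11:58948661-58948960, plus strand): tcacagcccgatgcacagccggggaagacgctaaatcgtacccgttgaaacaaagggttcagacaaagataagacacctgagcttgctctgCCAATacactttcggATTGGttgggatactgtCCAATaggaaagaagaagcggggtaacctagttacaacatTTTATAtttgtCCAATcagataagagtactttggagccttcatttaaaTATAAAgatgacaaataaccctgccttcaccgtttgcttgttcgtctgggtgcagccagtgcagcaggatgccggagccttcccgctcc
Hist1h2bg (chr13:23571150-23571449, plus strand): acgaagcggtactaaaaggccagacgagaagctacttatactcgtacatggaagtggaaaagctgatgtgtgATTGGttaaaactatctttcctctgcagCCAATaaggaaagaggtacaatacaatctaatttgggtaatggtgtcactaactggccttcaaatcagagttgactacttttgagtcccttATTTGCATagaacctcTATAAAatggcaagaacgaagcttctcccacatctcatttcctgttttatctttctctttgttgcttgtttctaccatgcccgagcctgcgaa
Hist3h2a (chr11:58954435-58954734, plus strand): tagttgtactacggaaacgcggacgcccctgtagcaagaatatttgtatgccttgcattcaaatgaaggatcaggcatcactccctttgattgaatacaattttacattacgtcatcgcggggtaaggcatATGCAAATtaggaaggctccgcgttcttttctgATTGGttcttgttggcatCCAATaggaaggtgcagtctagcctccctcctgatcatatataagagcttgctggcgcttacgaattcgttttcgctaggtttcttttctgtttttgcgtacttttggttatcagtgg

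The H1fx window held none of the 4 motifs, which says only that these letters are not in it. The GENCODE transcript of H1fx begins at 87981637, inside this RefSeq window. Much of the stretch before that GENCODE start was therefore not searched. CCAAT was present in 12 of 15 core, 6 of 7 variant and 5 of 7 linker windows, against 37.9% of 27025 mouse promoter windows. TATAAA was present in 9 of 15 core and 4 of 7 linker windows and in 1 of 7 variant windows (14.2% of all). The octamer was present in 6 of 15 core windows, in no linker window and in 1 variant window (1.75% of all). AAACACA was present in 4 of 7 linker windows, in no core window and in 1 variant window (7.14% of all). The windows of Hist1h2bg and Hist1h2ae are largely the same stretch read from opposite strands, so the matches in it are counted for both genes. Only the first start listed for a gene was counted, which leaves out a further Hist1h2be start whose window holds the octamer. These matches are descriptions of the letters, not binding sites.

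Over all 14858 genes with a mean of at least 10, limma (adjusted p under 0.05) called 55 lower (0.370%) and 55 higher (0.370%) in Bptf-cKO libraries. Among the 35 histone genes, 1 was called lower (H1fx) and 0 were called higher, as with edgeR's quasi-likelihood test on the recovered reads (H1fx adjusted p = 0.0229). At an unadjusted p under 0.05, limma gave 9 of the 35 lower and 0 higher, against 8.96% of all genes lower. Both Bptf-cKO libraries lay below both control libraries for 18 of the 35 (10 core, 3 variant and 5 linker genes), against 23.8% of all genes. Of the 10 core genes, 3 (Hist1h2ac, Hist1h2bb and Hist1h2bk) reached the minimum mean of 10 through the control libraries only, as did Hist1h2ae, and no gene reached it through Bptf-cKO only. A gene that passes in this way had to be lower in Bptf-cKO, so neither the count nor the medians support a direction for the group. Among the 31 whose mean reached 10 in both genotypes, a limit set after the values were seen, 15 lay below without overlap, and the core median (15 genes) was -0.68. Both lay above both control libraries for 0 of the 35, against 23.2% of all genes. The log2 fold change was below 0 for 29 of the 35 and for 7400 of all 14858 genes. Its median was -0.74 over the core, -0.12 over the variant and -0.43 over the linker genes, and 0.001 over all tested genes. With DESeq2 on the recovered reads, 7 of the 35 were called lower (H1fx, Hist3h2ba, Hist1h2bg, Hist3h2a, H2afy2, Hist1h1c and H3f3b) against 3.30% of all genes, and 0 were called higher. With 2 libraries a side, the smallest p that exact two-sided permutation could give for 1 gene is 0.333, so limma, which pools the spread over genes, was used. The 35 genes were selected by name, some share sequence and neighbours, and no test was made over the list.

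**Figure D1:**
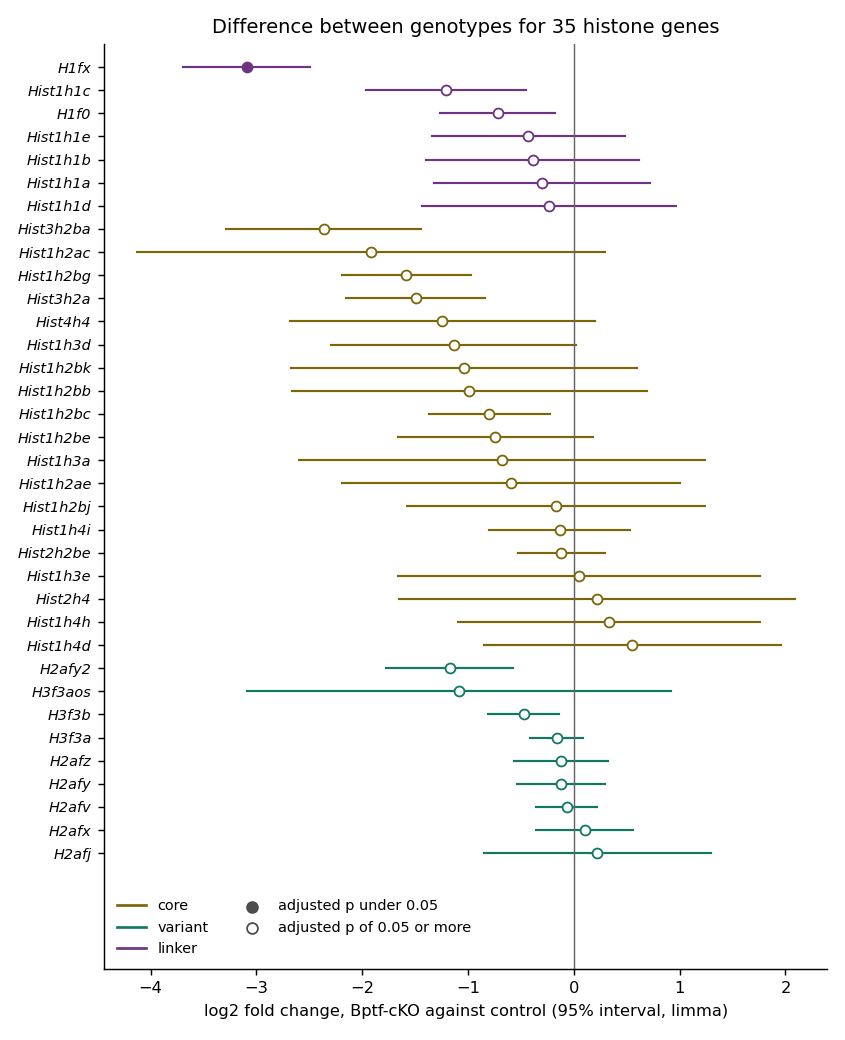
Log2 fold change (Bptf-cKO against control, x axis) of each of the 35 histone genes (y axis, grouped as linker, core and variant), with 95% intervals from limma over 2 libraries per genotype. The filled point is H1fx, at -3.09, and the open points are genes with an adjusted p of 0.05 or more, of which 6 lie above 0.

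H1fx, which encodes the linker histone H1.10, fell. It is a gene of 1 exon on the minus strand at chr6:87980421-87981637 (GRCm38), with 564 coding bases in a transcript of 1217. H1fx stood at 737 and 746 normalized counts in control replicates 1 and 2 and at 105 and 70.5 in Bptf-cKO replicates 1 and 2. The control libraries were nearly equal (741 ± 6.01, SD, n = 2), both Bptf-cKO libraries (87.6 ± 24.1, SD, n = 2) were far below them, and the groups did not overlap. The level in Bptf-cKO was 11.8% of that in control, 8.46-fold lower, on 951 and 538 reads against 161 and 50. The log2 fold change was -3.09 (SE 0.24, 95% interval -3.70 to -2.49, limma adjusted p = 0.0204), the 35th largest fall of all tested genes. Within the replicate 1 pair, which lacked the pluripotency and Xist reads, the difference was -2.80, and within the replicate 2 pair it was -3.38. No window of 50 bases of its transcript occurs in another gene's annotated transcript, so its reads can be assigned without a near-identical copy. Gm5577, an antisense RNA, overlaps H1fx over 755 bases and stood at 40.3 and 47.1 in control and 14.9 and 18.3 in Bptf-cKO (adjusted p = 0.219), and because the strand setting of the counting is not given, reads of the overlap cannot be told apart. The call was lost in limma without the mean-variance trend (adjusted p = 0.106) and when control replicate 2, Bptf-cKO replicate 1 or Bptf-cKO replicate 2 was left out (adjusted p = 0.0573, 0.0589 and 0.134), with a log2 fold change between -3.38 and -2.81 throughout. In bulk RNA, fewer cells that express H1fx and less H1fx RNA per cell cannot be told apart.

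**Figure D2:**
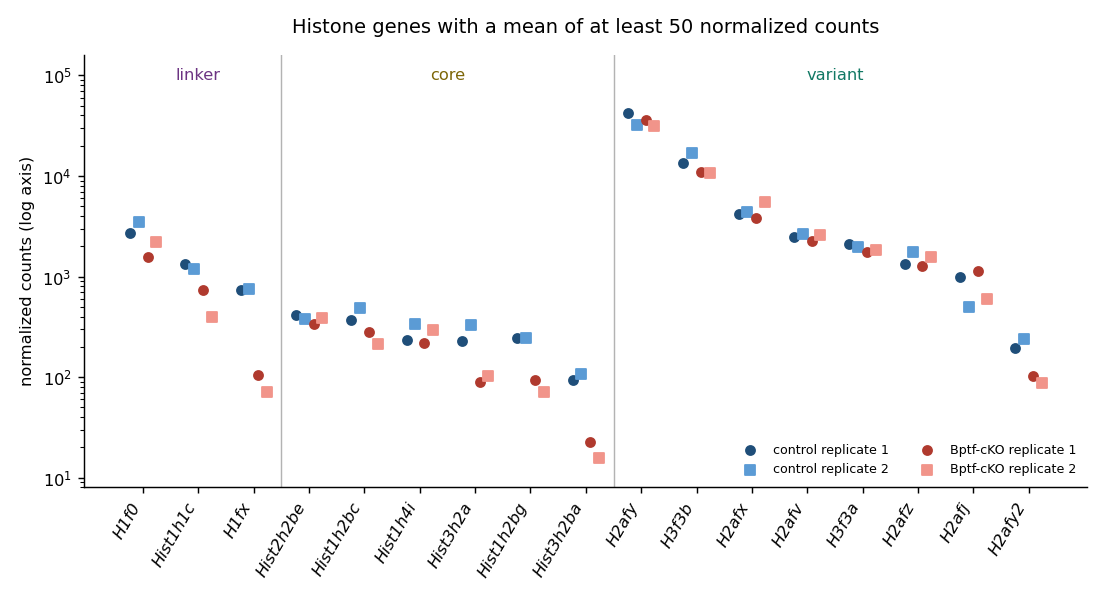
Normalized counts (y axis, log scale) in each of the 4 libraries for the 17 histone genes with a mean of at least 50, grouped as linker, core and variant. The Bptf-cKO libraries of H1fx, at 105 and 70.5, lie far below its control libraries at 737 and 746, while the 4 libraries of H2afv lie between 2263 and 2633.

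Of the linker genes, H1f0 had the highest normalized counts. It encodes H1.0 from chr15:79028450-79030504, and stood at 2691 and 3470 normalized counts in control and 1548 and 2219 in Bptf-cKO. Both Bptf-cKO libraries were below both control libraries, but within each genotype replicate 2 was the higher (log2 fold change -0.72, SE 0.21, limma adjusted p = 0.219). The pair differences, Bptf-cKO minus control with the same replicate number, were -0.80 for replicate 1 and -0.64 for replicate 2. Hist1h1c, which encodes H1.2 in the large cluster on chromosome 13 (chr13:23738808-23740367), stood at 1332 and 1179 in control and 738 and 398 in Bptf-cKO. The groups did not overlap, and the lowest library was Bptf-cKO replicate 2 (log2 fold change -1.21, SE 0.30, adjusted p = 0.162, pair differences -0.85 and -1.57). DESeq2 called Hist1h1c (adjusted p = 0.00755) and did not call H1f0 (adjusted p = 0.0504).

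The 4 other linker genes, Hist1h1a, Hist1h1b, Hist1h1d and Hist1h1e, which encode the replication-dependent subtypes H1.1, H1.5, H1.3 and H1.4, were measured at 20.8 to 48.0 normalized counts in every library. Their log2 fold changes lay between -0.43 for Hist1h1e and -0.23 for Hist1h1d, with adjusted p from 0.635 to 0.876 and intervals that reach from -1.43 to 0.97 for Hist1h1d. Hist1h1b had 31.8 and 29.1 in control and 20.8 and 25.4 in Bptf-cKO, without overlap, and Hist1h1e had 37.2 and 47.1 against 30.5 and 31.0, also without overlap. Hist1h1a (31.8 and 44.4 against 26.0 and 35.3) and Hist1h1d (34.1 and 47.1 against 24.0 and 48.0) overlapped. The last bases of Hist1h1e overlap Hist1h2be on the same strand over 496 bases, so their reads in that stretch cannot be told apart.

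Per kb of annotated transcript, H1f0, H1fx and Hist1h1c made up most of the linker histone level. Because poly(A) selection is not given, the shares need not be those of linker histone RNA in the cells. H1f0 took 45.5% and 53.0% of the summed linker level per kb in control and 54.0% and 72.1% in Bptf-cKO. H1fx took 21.0% and 19.2% in control and 6.16% and 3.87% in Bptf-cKO, the groups lying far apart. Hist1h1c took 29.7% and 23.7% in control and 33.9% and 17.0% in Bptf-cKO, so that its share overlapped between the genotypes although its level did not. The summed level was 2879 and 3187 normalized counts per kb in control and 1395 and 1497 in Bptf-cKO. The 4 other genes together stayed a small share, led by Hist1h1a at 1.49% and 1.88% in control and 2.52% and 3.18% in Bptf-cKO. These shares depend on the annotated lengths, which are 741 bases for Hist1h1a and 7425 for Hist1h1d. In normalized counts Hist1h1d had the highest mean of the 4, at 38.3 against 34.4 for Hist1h1a. RNA shares are not shares of H1 protein, which was not measured here.

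**Figure D3:**
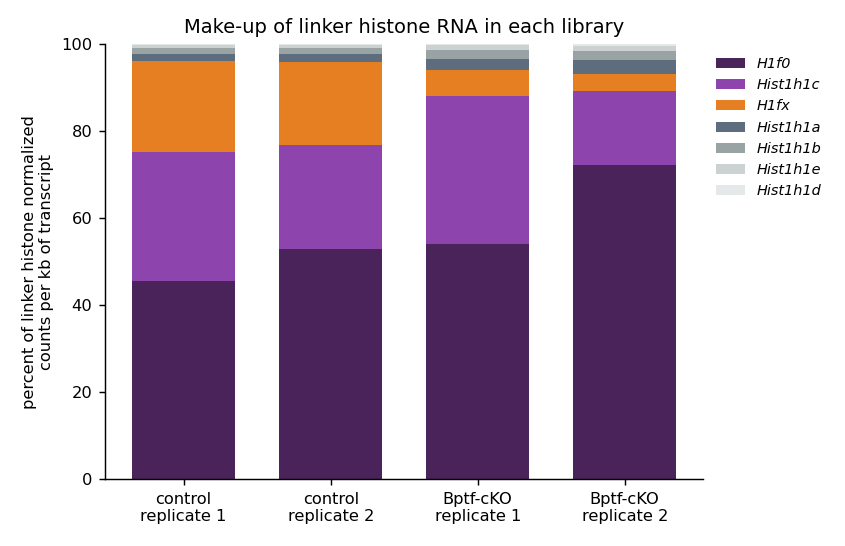
Percent of the summed linker histone level (normalized counts per kb of transcript, y axis) that each of the 7 linker genes takes in each library (x axis). The share of H1fx is 21.0% and 19.2% in the control libraries and 6.16% and 3.87% in the Bptf-cKO libraries.

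The largest fold change among the core genes was that of an H2B gene, Hist3h2ba. Hist3h2ba (chr11:58948920-58949533) stood at 94.6 and 108 normalized counts in control and 22.7 and 15.5 in Bptf-cKO. The groups did not overlap and lay 5.30-fold apart, on 11 to 122 reads per library (log2 fold change -2.37, SE 0.36, 95% interval -3.29 to -1.45, limma adjusted p = 0.0689, pair differences -2.01 and -2.72). Hist1h2bg (chr13:23571396-23572013) stood at 247 and 244 in control and 93.6 and 70.5 in Bptf-cKO. Its control libraries were nearly equal and lay 2.99-fold above Bptf-cKO (log2 fold change -1.58, SE 0.24, adjusted p = 0.0673, pair differences -1.39 and -1.78). Hist1h2bc (chr13:23684199-23692908) stood at 370 and 484 against 278 and 212, without overlap (log2 fold change -0.80, SE 0.23, adjusted p = 0.204, pair differences -0.41 and -1.19). Hist2h2be (chr3:96221119-96223738), the core gene with the largest mean normalized count, stood at 415 and 374 against 337 and 391. There the groups overlapped (log2 fold change -0.12, 95% interval -0.53 to 0.29, adjusted p = 0.795). All 8 H2B genes had a log2 fold change below 0 (median -0.89). For 6 of the 8 both Bptf-cKO libraries lay below both control libraries, against 23.8% of all genes. Hist1h2bb and Hist1h2bk, both among the 6, reached the minimum mean through the control libraries only, so the filter fixed their direction. The 4 H2B genes Hist1h2bk, Hist1h2bb, Hist1h2be and Hist1h2bj had means under 50 and ranged from -1.04 to -0.17, with adjusted p of 0.414 or more.

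The H2A genes were represented mainly by Hist3h2a (chr11:58954685-58956830), at 226 and 327 normalized counts in control and 90.3 and 101.6 in Bptf-cKO. The Bptf-cKO libraries were both below the controls, and the control libraries differed from each other more than the Bptf-cKO libraries did (log2 fold change -1.50, SE 0.26, limma adjusted p = 0.0859, pair differences -1.32 and -1.68). Hist3h2a lies within the annotated span of Trim17 on the same strand, and Trim17 itself stood at only 5.64 to 6.98 normalized counts. Hist1h2ac stood at 41.1 and 22.2 against 16.9 and 2.82, the last on 2 reads (adjusted p = 0.382), and Hist1h2ae overlapped between the groups.

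Hist3h2ba and Hist3h2a lie in the small histone cluster on chromosome 11, with the pseudogene Hist3h2bb-ps between them. Hist3h2bb-ps, under the minimum level, stood at 10.1 and 9.70 in control and 1.95 and 2.82 in Bptf-cKO, on 2 to 13 reads, too few for a firm value. Its start faces that of Hist3h2a at a distance of 172 bases. On chromosome 13 the starts of Hist1h2bg and Hist1h2ae face each other at 175 bases, and those of Hist1h2bc and Hist1h2ac at 250. Of these, Hist1h2ae had 14.7 and 12.5 in control and 13.0 and 5.64 in Bptf-cKO, while its neighbour Hist1h2bg differed 2.99-fold. Of the 50-base windows of Hist3h2ba, 22.1% also occur in Hist3h2bb-ps, the only gene that shares any with it.

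The H4 genes lay on both sides of 0. Of 5, 2 had a log2 fold change below 0 and 3 above, with a median of 0.22, and none was called. Hist1h4i (chr13:22040636-22041362), the abundant one, stood at 233 and 335 normalized counts in control and 219 and 295 in Bptf-cKO. The groups overlapped, and replicate 2 was the higher in both genotypes (log2 fold change -0.14, 95% interval -0.80 to 0.53, limma adjusted p = 0.867). Hist4h4 stood at 40.3 and 18.0 against 10.4 and 11.3, without overlap (log2 fold change -1.24, adjusted p = 0.384). Hist2h4, Hist1h4h and Hist1h4d had 4 to 24 reads per library, with log2 fold changes of 0.22, 0.33 and 0.55 and adjusted p of 0.702 or more, and each was below 0 in the replicate 1 pair and above 0 in the replicate 2 pair. The difference between the classes was not tested. Among the 3 H3 genes, Hist1h3d stood at 25.6 and 37.4 against 13.0 and 14.1 (log2 fold change -1.14, adjusted p = 0.325), and Hist1h3a and Hist1h3e overlapped.

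Summed over the 19 core genes, normalized counts were 1870 and 2139 in control and 1220 and 1254 in Bptf-cKO. The replicate 1 and replicate 2 pairs gave core medians of -0.41 and -1.02, and 14 of the 19 were below 0 in both pairs, against 34.4% of all tested genes. Of the 15 core genes whose mean reached 10 in both genotypes, 10 were, against 4828 of all 14211 such genes. The 6 core genes with a mean of at least 50 had a median of -1.15. Of these 6, 4 were lower at an unadjusted limma p under 0.05, against 8.96% of all tested genes. Of the 13 with a lower mean 0 were, but these had at most 60 reads in a library, which limits what the fit can call. The share of 50-base windows that occur in other genes ran from 0% for Hist2h2be and 1.01% for Hist2h4 to 74.2% for Hist1h2bk, at low and high levels alike. It was 49.7% for Hist1h2bg (with 14 genes), 31.5% for Hist3h2a, 30.1% for Hist1h2bc, 28.9% for Hist1h4i and 22.1% for Hist3h2ba. How the counting treated such reads is not given, so the values of these genes are uncertain, the abundant ones included.

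**Figure D4:**
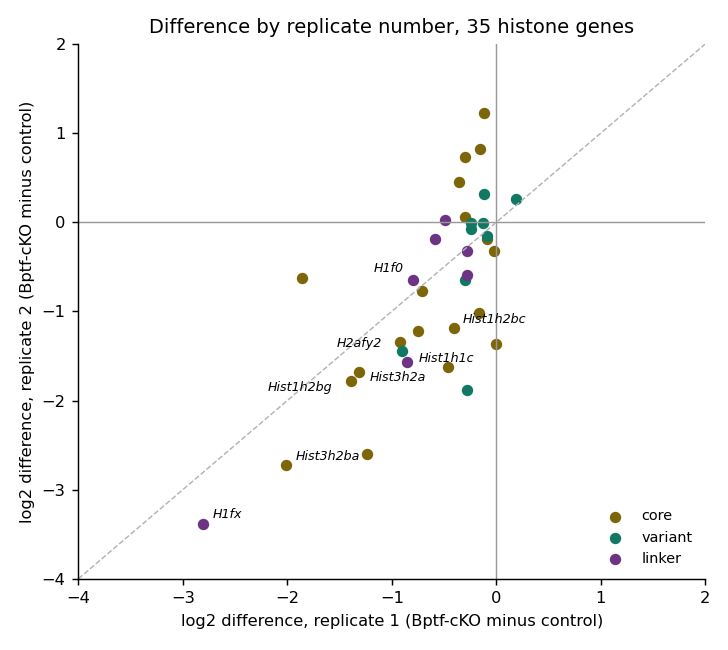
Log2 difference between Bptf-cKO and control in the replicate 1 pair (x axis) and the replicate 2 pair (y axis) for the 35 histone genes, with a dashed line of equality. H1fx lies at -2.80 and -3.38, and 27 of the 35 genes are below 0 in both pairs, against 34.4% of all tested genes. Of the 31 histone genes whose mean reached 10 in both genotypes, 23 are, against 4828 of all 14211 such genes.

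The annotation gives the bases that follow the stem-loop in each transcript. Of the 17 core genes with a stem-loop, 12 had annotated transcripts that run on for 151 to 2445 bases after it, and 5 ended within 23 to 46 bases. The 5 short ones (Hist1h2bj, Hist1h2bb, Hist1h3a, Hist1h4h and Hist1h2bk) had control levels of 22.9 to 41.2 normalized counts per kb. The 12 longer ones reached from 7.41 for Hist2h4 to 397 for Hist1h2bg, and the 4 core genes with a stem-loop and more than 100 per kb (Hist1h2bg, Hist1h4i, Hist3h2ba and Hist3h2a) were all of this kind. Among the 26 symbols under the minimum, 16 had a stem-loop, and 11 of these ended within 11 to 74 bases after it, with control levels of 3.20 to 16.8 per kb. The other 5 ran on for 365 to 1214 bases, with control levels of 2.70 to 9.98 per kb. The bases after the stem-loop are part of the length that divides the counts, so a longer end by itself lowers the level per kb. In normalized counts, the means over the 4 libraries were 4.77 to 9.62 for these 5 genes and 2.86 to 8.17 for the 11. The median log2 fold change was -0.94 over the 12 longer genes and -0.68 over the 5 short ones. Whether the libraries were selected for poly(A) RNA is not given in the sources used here, and the level is part of how the genes were chosen.

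**Figure D5:**
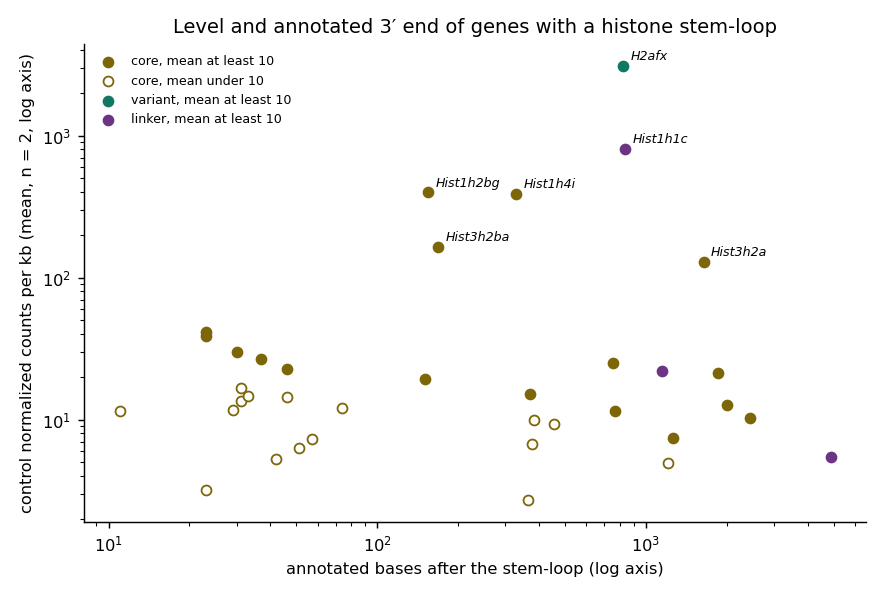
Control level (mean of 2 libraries, normalized counts per kb of transcript, y axis, log scale) against the annotated bases after the stem-loop (x axis, log scale) for every histone gene with a stem-loop, with open points for symbols under the mean of 10. The core genes above 100 per kb, led by Hist1h2bg at 397, all have transcripts that continue more than 100 bases past the stem-loop. The bases on the x axis are part of the transcript length that divides the counts on the y axis.

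The variant genes held most of the normalized counts of the histone genes, at a sum of 66755 and 60117 in control and 56918 and 54696 in Bptf-cKO. Because poly(A) selection is not given, these sums need not show the make-up of histone RNA in the cells. H2afy, which encodes macroH2A1, was the highest of the histone genes at 42043 and 31788 against 35645 and 31711 (log2 fold change -0.12, 95% interval -0.54 to 0.29, limma adjusted p = 0.794). Per kb it stood at 18043 in control, above H3f3b at 6012 and H2afx at 3101. The groups of H2afy overlapped, and its 2 replicate 2 libraries were nearly equal.

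H2afy2, the paralog of H2afy that encodes macroH2A2, stood at 195 and 240 normalized counts in control and 103 and 87.5 in Bptf-cKO. The groups did not overlap and lay 2.28-fold apart (log2 fold change -1.18, SE 0.24, 95% interval -1.77 to -0.58, limma adjusted p = 0.113), with pair differences of -0.91 and -1.44. DESeq2 called it (adjusted p = 0.0133). It lies at chr10:61738665-61784147, its end overlaps Aifm2 on the other strand over 596 bases, and Aifm2 stood at 156 and 175 in control and 187 and 169 in Bptf-cKO, with the groups overlapping.

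The 2 genes for histone H3.3, the variant deposited outside replication, were H3f3b at 13411 and 16816 against 10872 and 10760 and H3f3a at 2102 and 1961 against 1773 and 1855. For both, the Bptf-cKO libraries were below the control libraries without overlap, by small amounts. The log2 fold change was -0.47 for H3f3b (SE 0.13, limma adjusted p = 0.200, pair differences -0.30 and -0.64) and -0.16 for H3f3a (SE 0.099, adjusted p = 0.503, pair differences -0.25 and -0.080). DESeq2 called H3f3b at an adjusted p of 0.0474. H3f3aos, the antisense RNA that shares 168 bases with H3f3a, stood at 33.3 and 23.6 against 27.3 and 5.64 (adjusted p = 0.586). H3f3a shares 14.9% and H2afz 33.2% of their windows with other genes, so their reads may be split.

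The H2A.Z genes H2afz (1346 and 1735 against 1265 and 1561) and H2afv (2474 and 2633 against 2263 and 2615) overlapped between genotypes, with log2 fold changes of -0.12 (95% interval -0.56 to 0.32) and -0.07 (95% interval -0.36 to 0.22). H2afx, whose protein is phosphorylated at DNA breaks, stood at 4165 and 4418 against 3847 and 5503, the Bptf-cKO libraries lying on both sides of the controls (log2 fold change 0.10, 95% interval -0.36 to 0.56). H2afj stood at 986 and 502 against 1122 and 600, so that it differed more between replicate numbers than between genotypes. Its groups overlapped, and it was slightly higher in Bptf-cKO in both pairs (log2 fold change 0.22, adjusted p = 0.862, pair differences 0.19 and 0.26). Over the 9 variant genes the pair medians were -0.24 and -0.08.

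The 26 symbols below the minimum, all of the core group, had at most 19 reads in any library. Summed, they reached 156 and 134 normalized counts in control and 109 and 164 in Bptf-cKO, which overlap. The mean was lower in Bptf-cKO for 12 and higher for 14 of them. They were not tested, and 7 of them had a library at 0. Hist1h2bf, an H2B gene and 1 of the 7, stood at 3.88 and 6.93 against 0.65 and 0, on 5 reads in each control library.

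The genes that act on histone RNA and protein were examined beside them. Of 14 genes for the transcription and processing of histone mRNA, 0 were called by limma, edgeR or DESeq2, and with limma 1 each had an unadjusted p under 0.05 in either direction. Slbp, whose protein binds the stem-loop, stood at 2237 and 2383 against 2210 and 1877 (log2 fold change -0.18, adjusted p = 0.538), and Npat, the coactivator of histone gene transcription, at 1261 and 1229 against 1354 and 1199. The largest differences in the list were 0.39 for Ccne2, -0.38 for Lsm11, a subunit of the U7 particle that cuts histone pre-mRNA, and 0.23 for Cpsf2, with adjusted p of 0.304 or more.

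Of 26 genes for histone chaperones and exchange, 0 were called by limma, edgeR or DESeq2, 0 had an unadjusted limma p under 0.05, and the median log2 fold change was 0.04. The largest differences were -0.47 for Hjurp, the chaperone of the centromeric variant CENP-A, 0.35 for Srcap, which exchanges H2A.Z into chromatin, and -0.24 for Atrx, which deposits H3.3 with DAXX. Cenpa itself stood at 2273 and 3623 against 1735 and 3807, overlapping between genotypes (log2 fold change -0.16, adjusted p = 0.907). Of 22 S-phase genes, 0 were called by the same 3 tools and 0 had an unadjusted limma p under 0.05, with a median log2 fold change of -0.04 and a range from -0.23 for Ung to 0.19 for Mki67, and their summed level was 126840 and 154660 in control and 135030 and 148820 in Bptf-cKO.

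Markers of other cell types that moved with genotype are given because histone levels differ between cell types. Of 8 erythroid markers 7 were tested, and all 7 had a log2 fold change below 0 (median -1.96, and -2.10 and -1.60 in the replicate 1 and 2 pairs). For 6 of the 7 both Bptf-cKO libraries lay below both control libraries, against 23.8% of all genes. Limma called 1, Epor (326 and 255 against 77.3 and 69.1, adjusted p = 0.0443), against 0.370% of all genes lower, where edgeR called 0 and DESeq2 3. Klf1 stood at 367 and 143 against 57.8 and 49.4. The summed erythroid level was 1018 and 1103 normalized counts in control and 214 and 344 in Bptf-cKO, and Alas2 stood at 13.2 and 31.9 against 3.25 and 2.82. Granulocyte-monocyte markers summed to 68030 and 12469 in control and 47630 and 39642 in Bptf-cKO, and B cell markers to 7636 and 1992 against 4288 and 2488, so that control replicate 1 was the highest for both. Limma called 0 of the 9 granulocyte-monocyte, 5 megakaryocyte, 6 B, 2 T and NK, and 4 stromal genes tested. Of these, 4 had an unadjusted p under 0.05 (1 higher and 3 lower), against 1009 higher and 1331 lower of all 14858 genes. DESeq2 called 1 of the 4, Col1a2. The cells were sorted as lineage-, SCA-1+ and c-KIT+, yet transcripts on these lists were present in every library. S100a9 stood at 11282 and 1238 normalized counts in control and 4243 and 2128 in Bptf-cKO. Cd79a stood at 1166 and 209 against 629 and 385. The part of these transcripts in the histone differences was not tested.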

How the data were processed

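RNA-seq of sorted LSK cells was analysed in 2 control and 2 Bptf-cKO libraries, grouped by the sample labels, each of cells pooled from 5 mice. The deposited values are a signal per gene symbol that the authors made by dividing gene counts by 1 size factor per library. The submitters' processing notes name HISAT2, featureCounts, DESeq2 and the builds GRCm38 and mm10; versions, annotation, strand and multimapping settings are not given in the sources used here. The authors' deposited columns of fold change, standard error, test score, p-value and adjusted p-value hold their own comparison and were not used. Listed genes have at least 11 reads over the 4 libraries. All values (100%) were whole multiples of the value of 1 read, within 0.01 read, so whole reads were recovered. On listed genes, control libraries 1 and 2 had 24875746 and 14091054 reads, whereas Bptf-cKO libraries 1 and 2 had 30134742 and 14104526.

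Of 18598 listed genes, 14858 reached a mean of 10 over the libraries and were compared on the log2(value + 1) scale, on which fold changes of low genes come out too small, with limma 3.58.1 in R 4.3.3 (trend of the variance on the mean, a single genotype term, two-sided, Benjamini-Hochberg adjustment over all 14858). The paper states no design for this test. All p-values in the text are from this fit unless another tool is named, and intervals are 95% intervals of that fit. Alternatives were edgeR 4.0.16 (quasi-likelihood) and DESeq2 1.42.0 (Wald) on the recovered reads, pseudocounts of 0.5 and 10, other filters, recentring, quantile normalization, no trend, the replicate number as a block, a fold change above 1.5, each library left out in turn and, chosen after seeing the data, a minimum mean of 10 in both genotypes. The fits were tested on simulated data. Positions, transcripts and lengths are from GENCODE vM21 (GRCm38) by symbol, which matched all 35 genes. Promoter windows are from RefSeq (GRCm38.p6). Levels per kb use the longest protein-coding transcript (the longest transcript for H3f3aos). Tables and figures were made with Python 3.11.15, pandas 2.3.3, numpy 2.4.6 and matplotlib 3.10.9.

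The members and the gene lists were chosen with earlier results of these data known. Named by rule were every linker and variant gene, core genes called, the 5 core genes with the largest mean, the 5 largest falls and rises among core genes with a mean of at least 50, and from each other list the genes called and the 3 with the largest change at a mean of at least 100. Other genes were named after their values were seen. The result of 1 gene that the rule names is not reported here. ATAC-seq and ChIP-seq of the study were not analysed here.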

Additional observations from a re-analysis of the deposited data

How the results depend on the processing

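Precision is limited by 2 libraries per genotype, and for genes with fewer than about 50 reads in a library also by counting error. Across 15 alternatives, the 39 genes of the report taken up here kept direction and side of the threshold in 509 values, gained a call in 36, lost one in 20 and reversed in 15, and all 15 reversals came from leaving out a library. Where that leaves 1 library in a genotype, it is assumed to vary like the other 2. Without the trend, limma called 0 histone genes lower, 0 of all genes lower and 2 higher. DESeq2 called 7, 490 and 318. The replicate number was also fitted as a replicate block, although the labels do not say what it marks: limma then called 10 histone genes lower (1242 genes lower and 896 higher in all) and edgeR 9 (1229 and 891). The 9, called by both, were H1fx, Hist3h2ba, Hist1h2bg, Hist3h2a, Hist1h1c, H2afy2, Hist1h2bc, H1f0 and H3f3b, limma added Hist1h2ac, and it also called Hjurp lower and Ccne2 higher. The deviations from the group means correlated at 0.452 between libraries of the same number over 14858 genes. At a minimum mean of 50 the core median was -1.15 (6 genes) and the linker median -1.21 (3 genes), and recentring gave a variant median of -0.070. Leaving out each library in turn gave 0 to 1 histone genes lower, 0 to 41 genes lower and 1 to 76 higher, and medians of -0.995 to -0.603 (core), -0.26 to -0.11 (variant) and -0.71 to -0.42 (linker). It gave log2 fold changes of -0.32 to 0.081 for H2afy, -0.16 to 0.36 for H2afx, -0.17 to 0.035 for H2afv, -0.30 to 0.062 for H2afz, -0.26 to 0.71 for H2afj, -0.71 to 0.25 for Hist1h1d, -0.40 to 0.13 for Hist1h4i, -0.73 to 0.41 for Cenpa, -0.26 to 0.65 for Mki67 and -0.63 to 0.17 for Ung, none of which was called. The cause of these changes was not tested.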
